A study of Homo sapiens with 3 samples.

Results

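The matrix metalloproteinases (MMPs), their tissue inhibitors (TIMPs) and the ADAM and ADAMTS metalloproteinases of FaDu cells were described in cells grown with the greater celandine extract NSC-631570 and in untreated cells. Members were the genes whose symbols follow these 4 family names, taken from probe sets that name exactly 1 gene in the platform annotation. They came to 63 genes of 18132, measured by 159 of 44994 such probe sets: 22 MMP, 4 TIMP, 19 ADAM and 18 ADAMTS genes. FaDu cells are an established line of squamous carcinoma, taken from a tumour of the hypopharynx. One array came from cells kept for 48 h in medium with 10 µg/ml NSC-631570, which the submitters call the half-maximal effective dose. The other 2 came from cells given distilled water instead, called untreated 1 and untreated 2 here. All 3 arrays came from the same line, grown in the same serum-containing medium with antibiotics. The treated condition had a single array, and the labels do not say whether the untreated arrays came from separate cultures, so the spread behind the p-values may be technical. The treated array was assumed to vary like the untreated ones.

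MMPs are zinc-dependent proteases that cut collagens, laminins and other matrix proteins. They are made as inactive precursors and, once active, are blocked by TIMPs, which sit in the active site. ADAMs are membrane proteins, many of which cut other membrane proteins free from the cell surface, among them ligands of the EGF receptor, cadherins and Notch. ADAMTS enzymes are secreted and act on proteoglycans, procollagens and other matrix proteins. In squamous carcinoma, collagenases and stromelysins are made by tumour cells as well as by stroma, and the second source is missing from a cell line.

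Signals are log2 values, so a difference of 1 is 2-fold, and each gene was read on its brightest probe set. The array medians over all probe sets were 6.55 for NSC-631570 and 6.62 and 6.57 for untreated. A gene entered the test if its mean signal reached 5.85, the 40th percentile of all probe sets, which 32 of the 63 members did. The other 31 (8 MMP, 10 ADAM and 13 ADAMTS genes) had means between 3.33 and 5.80, and no detection call could be made for them. Of the squamous epithelial markers, 6 of 9 had a probe set of their own and all 6 passed the filter (mean signals 9.67 to 13.62). Of the fibroblast markers 2 of 7 passed, COL1A1 and PDGFRB, and the mean of that list was 4.79 in the NSC-631570 array, against 4.90 and 4.75 in the untreated arrays. The endothelial list passed with 3 of 4 genes (list means 6.53 for NSC-631570, against 6.64 and 6.53 for untreated) and the leukocyte list with 3 of 5 (6.32 for NSC-631570, against 5.83 and 5.78 for untreated). In the leukocyte list CD68 had 9.53 in the NSC-631570 array, against 7.61 and 8.55 in the untreated arrays. CD14 had 7.42 in the NSC-631570 array, against 7.03 and 6.17 in the untreated arrays, and CD3E had 6.05, against 6.04 and 5.65. These 3 values lay above both untreated ones, for CD3E by little. The untreated mean of CD3E was just under the filter, so the treated array brought it past. PTPRC, the defining leukocyte marker, lay below the filter at 3.78 in the NSC-631570 array and 3.72 and 3.72 in the untreated arrays. In RNA from whole cultures, more cells of a kind and more RNA per cell cannot be told apart. The control probe set for the 5′ end of ACTB was 2.59-fold lower in the NSC-631570 array and that for the 3′ end 1.15-fold higher. The 5′ control of GAPDH was also lower, by 0.48 on the log2 scale. The part of RNA quality in the results below was not tested.

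No metalloproteinase or TIMP gene passed limma with Benjamini-Hochberg adjustment over all 11932 genes (0 of 32, where 0.067% of all tested genes passed, 0.0419% higher and 0.0251% lower). At an unadjusted p under 0.05 limma counted 8 of 32 members higher and 0 lower, where 12.2% of all tested genes were higher and 2.25% lower. The NSC-631570 array lay above both untreated arrays in 21 of 32 members (19 of 30 without MMP2 and ADAMTS6, whose untreated means of 5.84 and 5.79 were under the filter, so that the treated array brought them past it), where 51.7% of all tested genes did, below both in 4, where 22.5% did, and between them in 7, where 25.9% did. The median log2 difference from the untreated mean was 0.35 over the 32 members and 0.12 over all tested genes. At least 0.5 above both untreated arrays were 6 members, MMP28, ADAM8, MMP15, MMP1, TIMP1 and MMP3, where 8.79% of all tested genes were, and 0 lay as far below both, where 1.63% did. MMP28 and ADAM8 were 2-fold or more above both (2 of 32, where 0.88% of all tested genes were), and 0 were 2-fold or more below both, where 0.235% were. Passing the filter, and which probe set stood for a gene, depended on the mean of all 3 arrays, so these counts describe the 32 genes and no more. For MMP28 the treated value decided which probe set stood for the gene. ADAM11, below both, had a treated value under the filter, so the untreated arrays brought it past the filter. When the arrays were shifted so that the tested genes had the same median in each, 20 of 32 members lay above the untreated mean in place of 23, and 40% of all tested genes in place of 66%. Below the untreated mean as deposited were 9 members, where 34% of all tested genes were.

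**Figure D1:**
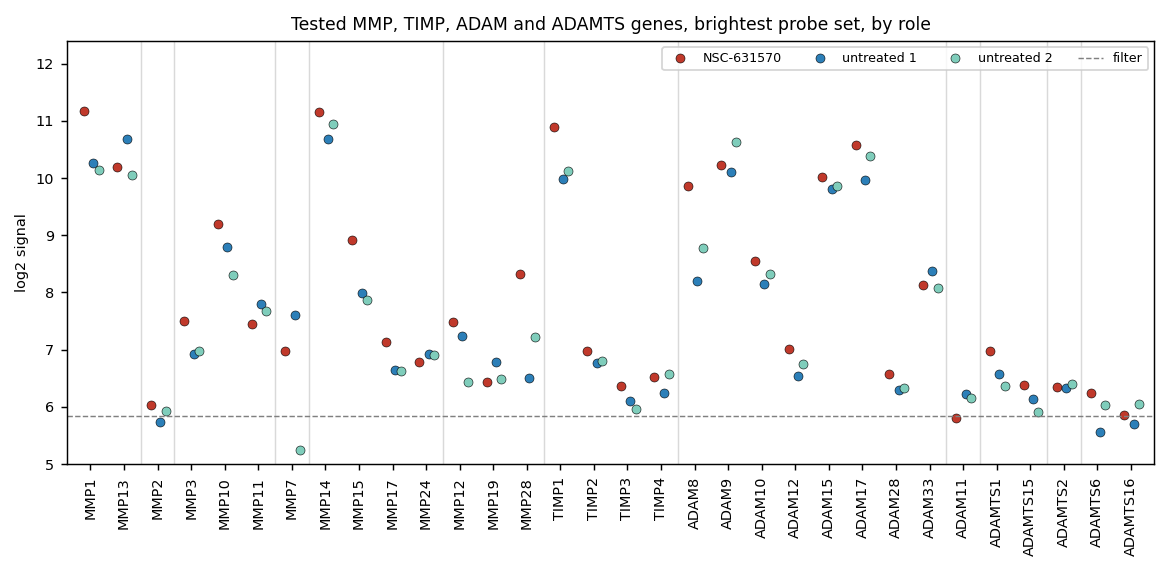
Log2 signal (vertical axis) of the 32 tested genes on their brightest probe set, grouped by role between grey lines, with 1 point per array: NSC-631570 left of untreated 1 and untreated 2. The dashed line is the filter of 5.85, and heights of different genes are not comparable because each has its own probes. The NSC-631570 point is above both untreated points in 21 genes.

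**Figure D2:**
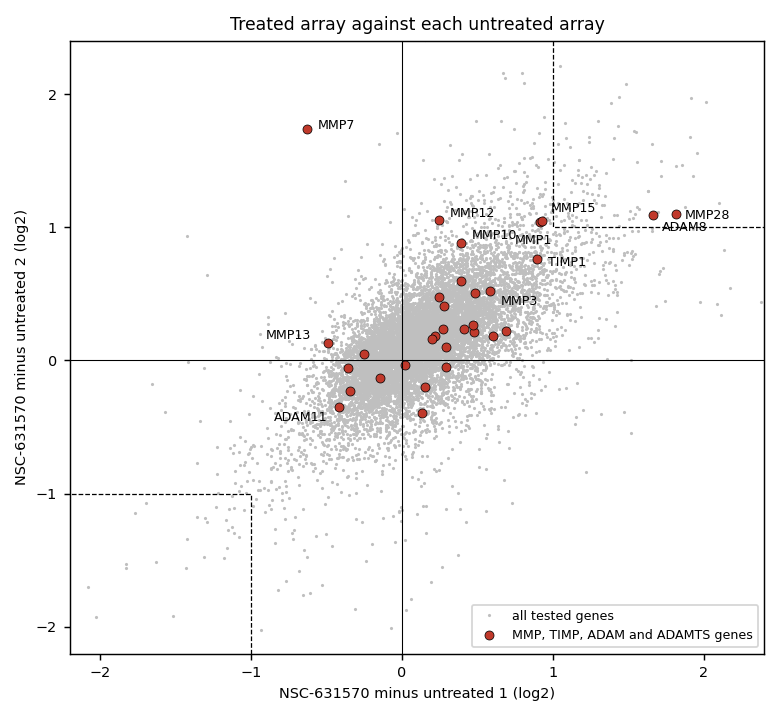
Log2 difference of the NSC-631570 array from untreated 1 (horizontal axis) and from untreated 2 (vertical axis), with 1 point per gene. Metalloproteinase and TIMP genes are red, all tested genes grey, dashed corners mark 2-fold outside both untreated arrays, and 10 grey genes lie beyond the axes. MMP28 and ADAM8 are the 2 members in the upper corner, and MMP7 stands apart at −0.63 and 1.74.

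Of the collagenases, which cut fibrillar collagen, MMP1 was higher in the NSC-631570 array and MMP13 was not set apart from the untreated arrays. MMP1, the interstitial collagenase, had a signal of 11.17 in the NSC-631570 array, against 10.26 and 10.14 in the untreated arrays. The treated value lay above both, and the untreated values were 0.12 apart. The log2 difference was 0.98 ± 0.22 (SE, limma, 1 array against 2), or 1.97-fold, with an adjusted p = 0.13. Its other probe set differed by 0.83. MMP13, a collagenase of cartilage and of carcinoma cells, had 10.19 in the NSC-631570 array, against 10.68 and 10.05 in the untreated arrays, so the treated value lay between them (difference −0.18 ± 0.29, adjusted p = 0.856 by limma). Its 3 other probe sets past the filter differed by −0.13, −0.36 and −0.50. MMP8, the collagenase of neutrophils, stayed below the filter with 4.14 in the NSC-631570 array, against 4.03 and 4.12 in the untreated arrays.

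The stromelysins have a broad range of matrix substrates and can activate other MMPs. MMP3 had 7.51 in the NSC-631570 array, against 6.92 and 6.98 in the untreated arrays, on its single probe set, a difference of 0.55 ± 0.21 (1.47-fold, adjusted p = 0.295 by limma). MMP10, its close relative, had 9.19 in the NSC-631570 array, against 8.80 and 8.31 in the untreated arrays. Both treated values lay above both untreated ones, but for MMP10 the distance from untreated 1, 0.39, was smaller than the gap of 0.49 between the untreated arrays. MMP11, which is activated inside the cell by furin, was the one tested stromelysin below both untreated arrays, with 7.44 in the NSC-631570 array, against 7.79 and 7.68 in the untreated arrays. Of the gelatinases, which cut denatured collagen and basement membrane collagen, MMP2 only just passed the filter (6.04 in the NSC-631570 array, against 5.74 and 5.94 in the untreated arrays). MMP9 did not pass it and had 5.57 in the NSC-631570 array, against 5.72 and 5.40 in the untreated arrays.

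Among the MMPs that stay on the cell surface, MMP15 differed most. This transmembrane protease had 8.91 in the NSC-631570 array, against 7.99 and 7.87 in the untreated arrays, and the untreated values were 0.12 apart. The difference was 0.99 ± 0.22 (1.98-fold, adjusted p = 0.129 by limma). Its other probe set lay below the filter and differed by 0.12. MMP14, which activates the MMP2 precursor at the cell surface, had 11.16 in the NSC-631570 array, against 10.68 and 10.94 in the untreated arrays, a difference of 0.35 ± 0.23 (adjusted p = 0.561 by limma). MMP17, held in the membrane by a lipid anchor, had 7.13 in the NSC-631570 array, against 6.65 and 6.62 in the untreated arrays. MMP24 was 0.14 lower than the untreated mean (−0.14), and MMP16 and MMP25 were below the filter.

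MMP28, or epilysin, is a secreted protease made by keratinocytes and other epithelia. On its brightest probe set it had 8.32 in the NSC-631570 array, against 6.51 and 7.22 in the untreated arrays. The treated value was 2.15-fold above the higher untreated one, and the untreated values were 1.64-fold apart. The difference from their mean was 1.46 ± 0.31 (2.75-fold, adjusted p = 0.124 by limma). The second probe set of MMP28 did not repeat this: it had 7.08 in the NSC-631570 array, against 7.08 and 6.75 in the untreated arrays. Over the untreated arrays alone this second probe set had the higher mean, so the treated value made the first one the brightest. When the arrays were shifted to 1 median, taken over all probe sets, MMP28 and ADAM8 passed the threshold (adjusted p = 0.0475 and 0.0437). There 1.14% of all tested genes passed.

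All 4 TIMPs passed the filter, and 3 of them lay above both untreated arrays. TIMP1, a secreted inhibitor of most MMPs, had 10.88 in the NSC-631570 array, against 9.99 and 10.12 in the untreated arrays. The difference was 0.83 ± 0.22 (1.78-fold, adjusted p = 0.161 by limma). This probe set carries the suffix that marks probes shared with other transcripts. Another without it differed by 0.75 and the last, close to the filter, by −0.01. TIMP2, which also takes part in the activation of MMP2 on MMP14, had 6.98 in the NSC-631570 array, against 6.76 and 6.80 in the untreated arrays. Its second probe set was 0.71 higher, with 6.77 in the NSC-631570 array, against 6.22 and 5.91 in the untreated arrays. TIMP3, which binds to the matrix and also inhibits ADAM17, had 6.37 in the NSC-631570 array, against 6.10 and 5.96 in the untreated arrays. TIMP4 lay between its untreated values (6.53 in the NSC-631570 array, against 6.24 and 6.58 in the untreated arrays). Adjusted p-values of TIMP2, TIMP3 and TIMP4 were 0.758, 0.543 and 0.885 by limma.

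The promoters of 37 of the 63 members were searched, as given in the RefSeq table (GRCh38.p14); those of the other 26, MMP1, MMP3, MMP13 and MMP28 among them, were not analysed here. Among the 37, those of TIMP1 and TIMP3 hold TNGCGTG, a core of the element bound by the aryl hydrocarbon receptor, which is known to switch on CYP1A1. Both strands were searched, in windows from 250 bases before to 50 after the start of the gene. Of the 35116 promoters given there, 5.51% hold it, as did 2 of the 37 searched (5.41%). The TIMP1 promoter (chrX:47582186-47582485, plus strand) is shown for the TIMP with the largest difference, with the match in capitals. The match begins 38 bases before the start.
TIMP1: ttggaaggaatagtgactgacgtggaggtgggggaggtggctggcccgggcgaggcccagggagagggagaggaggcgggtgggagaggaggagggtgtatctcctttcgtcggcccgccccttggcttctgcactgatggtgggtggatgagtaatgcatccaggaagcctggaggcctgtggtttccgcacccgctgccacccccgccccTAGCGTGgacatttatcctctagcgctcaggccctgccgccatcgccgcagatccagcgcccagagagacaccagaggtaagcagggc

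Among the ADAMs, ADAM8 was set furthest apart. ADAM8 is a membrane protease found on leukocytes and on carcinoma cells, where it cuts adhesion molecules. It had 9.86 in the NSC-631570 array, against 8.20 and 8.77 in the untreated arrays, and was 2.13-fold above the higher of these. The difference was 1.38 ± 0.28 (2.60-fold, adjusted p = 0.115 by limma). A second probe set gave 8.66 in the NSC-631570 array, against 7.12 and 7.46 in the untreated arrays, a difference of 1.37. The 2 others differed by 0.47 and 0.33, the last with the treated value just under untreated 2. When each probe set was tested by itself by limma, the first and second probe sets of ADAM8 passed the threshold (adjusted p = 0.0491 and 0.0326), in a fit where 2.92% of 27255 probe sets passed, 0.55% higher and 2.37% lower. Of the leukocyte markers past the filter, CD68 and CD14 also had a higher value in this array. CD3E was higher by little and had passed the filter only through this array. PTPRC lay below the filter, as did MS4A1, with 4.81 in the NSC-631570 array, against 4.74 and 4.82 in the untreated arrays. The part of these markers in the ADAM8 result was not tested.

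The general sheddases differed little on their brightest probe sets. ADAM10, which cuts Notch receptors and E-cadherin, had 8.55 in the NSC-631570 array, against 8.14 and 8.32 in the untreated arrays. ADAM17, which releases TNF and ligands of the EGF receptor, had 10.57 in the NSC-631570 array, against 9.97 and 10.39 in the untreated arrays. ADAM15, which carries an integrin-binding motif, had 10.01 in the NSC-631570 array, against 9.81 and 9.85 in the untreated arrays. All of these treated values lay above both untreated ones, by 0.24, 0.18 and 0.16, with limma adjusted p = 0.578, 0.547 and 0.792. ADAM9, a membrane sheddase, lay between its untreated values (10.23 in the NSC-631570 array, against 10.10 and 10.63 in the untreated arrays), and its other probe sets were lower by a median of 0.32 (−0.32). ADAM12, ADAM28 and ADAM33 differed by 0.37, 0.25 and −0.10. Of 7 ADAMs without a catalytic site, ADAM11, known from neurons, passed the filter. It was lower, with 5.81 in the NSC-631570 array, against 6.23 and 6.16 in the untreated arrays. This treated value was under the filter, which the gene passed through the untreated arrays.

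Probe sets of 1 gene did not always move together. At least 2 probe sets past the filter were found for 15 members, and in 4 of these, ADAM10, ADAM15, ADAM17 and MMP14, some lay above both untreated arrays and some below both. The same count over all genes was not made, so whether 4 of 15 is usual on these arrays is not known. One ADAM17 probe set had 5.46 in the NSC-631570 array, against 6.61 and 6.68 in the untreated arrays, a difference of −1.18 that passed the threshold when each probe set was tested by itself (adjusted p = 0.037 by limma). A probe set of ADAM15 had 7.69 in the NSC-631570 array, against 8.42 and 8.43 in the untreated arrays, and another had 7.03 in the NSC-631570 array, against 7.80 and 8.10. These lower values are opposite to those of the brightest probe sets of the same genes. One ADAM10 probe set differed by −0.59 and one MMP14 probe set by −0.63, while the others past the filter were higher (0.19 and 0.28 for ADAM10, 0.40 and 0.57 for MMP14). Of the 31 member probe sets past the filter that were not the brightest of their gene, 12 lay above both untreated arrays and 10 below both, with a median difference of 0.05. Of all 15323 such probe sets on the array, 32.2% lay above both and 43.8% below both, with a median difference of −0.05. The NSC-631570 array had the lower 5′ control signals given above. Where in its transcript each probe set lies was not analysed here, and the part of lower 5′ signal in these differences was not tested.

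**Figure D3:**
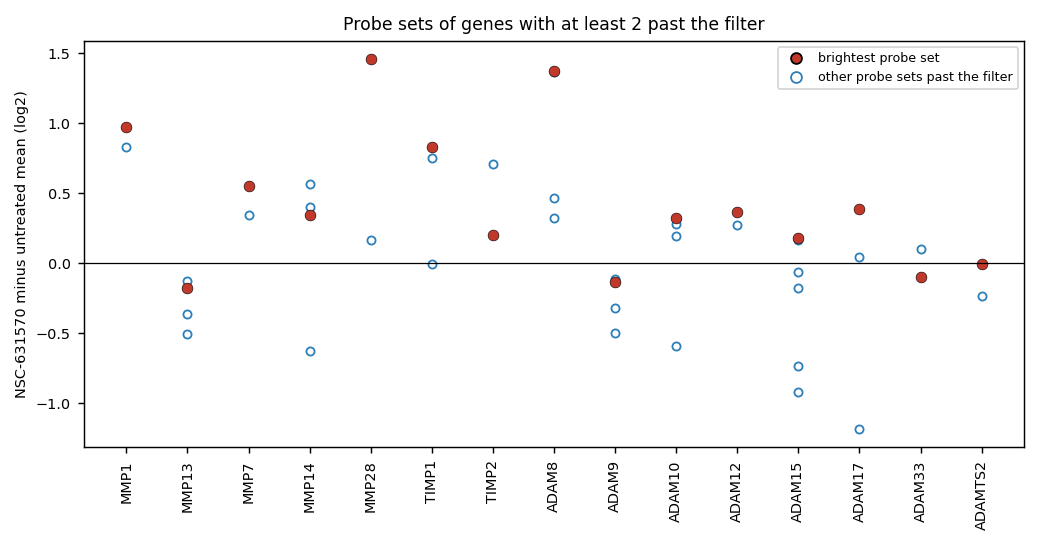
Log2 difference of the NSC-631570 array from the untreated mean (vertical axis) for every probe set past the filter, in the 15 genes with at least 2 of them. Filled red points are the brightest probe set of a gene and open points the others. The probe sets of MMP1 lie close together, while those of ADAM17 span from −1.18 to 0.39 and those of ADAM15 from −0.92 to 0.18.

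In the ADAMTS family 5 of 18 genes passed the filter, all near it, with means between 5.87 and 6.64. ADAMTS1, which cuts the proteoglycans aggrecan and versican, had 6.97 in the NSC-631570 array, against 6.58 and 6.37 in the untreated arrays. Its other probe set, below the filter, differed by −0.63. ADAMTS15, of the same subgroup, had 6.39 in the NSC-631570 array, against 6.14 and 5.91 in the untreated arrays. Both treated values lay above both untreated ones, by 0.39 and 0.24. ADAMTS2, which trims procollagens, and ADAMTS16 lay between their untreated values, and ADAMTS6 was 0.45 above the untreated mean, with untreated values 0.47 apart. The filter fell between ADAMTS16, with a mean of 5.87, and ADAM19, with 5.80.

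Of the MMP genes, 9 lie side by side on chromosome 11, in the order MMP7, MMP20, MMP27, MMP8, MMP10, MMP1, MMP3, MMP12 and MMP13, with no other protein-coding gene between them in the RefSeq genes of assembly GRCh38.p14. From this row, 6 genes were tested. MMP20, the protease of tooth enamel, MMP27 and MMP8 stayed below the filter in all arrays and stand next to each other, between MMP7 and MMP10. Of the 6 tested genes 4 lay above both untreated arrays in the NSC-631570 array, where 51.7% of all tested genes did, and MMP7 and MMP13 lay between them, where 25.9% did. Untreated 1 was higher than untreated 2 in 5 of the 6, all but MMP3, in 15 of the 32 tested members and in 6322 of all 11932 tested genes.

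MMP7, the matrilysin of glandular epithelia, differed most between the untreated arrays. It had 6.98 in the NSC-631570 array, against 7.61 and 5.24 in the untreated arrays, which were 5.16-fold apart. MMP7 was the 1 member of 32 whose untreated values were at least 2-fold apart, where 1.32% of all tested genes were. Its difference of 0.55 from the untreated mean therefore had an SE of 0.76 (adjusted p = 0.825 by limma). From untreated 1 the difference was −0.63 and from untreated 2 it was 1.74. MMP12, the elastase first described in macrophages, had 7.49 in the NSC-631570 array, against 7.24 and 6.43 in the untreated arrays, which were 1.75-fold apart.

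**Figure D4:**
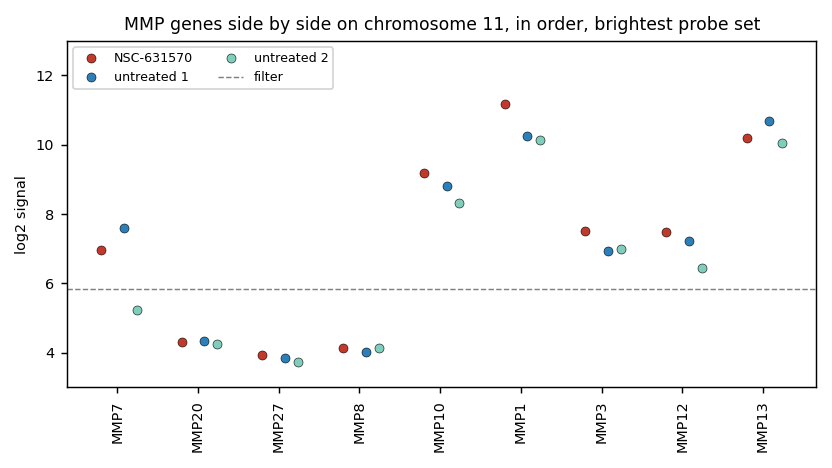
Log2 signal (vertical axis) of the 9 MMP genes that neighbour each other on chromosome 11, in their order along it, with 1 point per array: NSC-631570 left of untreated 1 and untreated 2. The dashed line is the filter of 5.85. MMP20, MMP27 and MMP8 lie below the line, and the untreated points of MMP7 are the farthest apart.

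The MMP7 promoter (chr11:102530698-102530997, minus strand, GRCh38.p14, RefSeq) is shown as the one of the 37 searched promoters that holds TGAGTCA, the site of AP-1 factors, which are known regulators of many MMP genes. The match is in capitals and begins 67 bases before the start. On both strands 4.95% of all 35116 promoters hold these letters. TATAAA is found in 8 of the 37 windows (21.6%, against 11.5% of all promoters). Among the 16 windows of tested members 2 hold it, those of MMP7 and MMP10, and the others belong to genes below the filter.
MMP7: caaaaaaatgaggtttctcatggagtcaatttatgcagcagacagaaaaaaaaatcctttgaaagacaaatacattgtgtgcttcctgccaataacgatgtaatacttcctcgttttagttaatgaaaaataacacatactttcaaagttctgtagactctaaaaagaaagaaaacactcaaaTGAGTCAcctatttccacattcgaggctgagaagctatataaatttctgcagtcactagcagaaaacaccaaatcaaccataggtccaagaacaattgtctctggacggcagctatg

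Genes linked to these proteases were taken from a list of 50: activators, other inhibitors, partners of the sheddases, shed substrates, ADAMTS-like genes and AP-1 and ETS factors. A probe set of their own was found for 48, and 42 were tested. None passed limma with adjustment over all genes (0 of 42, where 0.067% of all tested genes passed), and at an unadjusted p under 0.05 there were 9 higher and 2 lower, where 12.2% and 2.25% of all tested genes were. The NSC-631570 array lay above both untreated arrays in 24 of 42, where 51.7% of all tested genes did, and below both in 8, where 22.5% did. The median difference was 0.24, against 0.12 over all tested genes. Among the 24 was PAPLN, with 6.52 in the NSC-631570 array, against 6.31 and 5.16 in the untreated arrays. Its untreated mean was under the filter, so the treated array brought it past the filter. Of 7 tested activators 6 lay above both (all tested genes, 51.7%), among them PLAUR, the urokinase receptor (0.71 above the untreated mean, with a median of 0.54 for its 4 other probe sets), and PCSK6, a convertase that activates precursors (0.68 above the untreated mean, with a median of −0.27 for its 2 other probe sets). The remaining activator, PLAU (urokinase), had 12.59 in the NSC-631570 array, against 12.12 and 12.95 in the untreated arrays, and so lay between them. Its 2 other probe sets past the filter were lower, by −2.14 and −1.15. Of 9 partners of ADAM10 and ADAM17 7 lay above both, beside the same 51.7%. The 2 other probe sets past the filter were lower for RHBDF2 (−0.18 and −0.29) and for FRMD8 (−0.43 and −0.49). The 3 others of TSPAN14 differed by between −1.31 and 0.68. TSPAN10, TSPAN15, TSPAN17 and TSPAN33 had no other probe set past the filter.

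Among the shed substrates IL6R, the receptor of interleukin 6, had 7.05 in the NSC-631570 array, against 6.07 and 6.01 in the untreated arrays, a difference of 1.01 (2.01-fold, adjusted p = 0.127 by limma). L1CAM, an adhesion molecule, stood 0.66 above the untreated mean. The transcription factors went both ways, with 3 of 8 above both untreated arrays and 3 below both, where 51.7% and 22.5% of all tested genes were. ETV4, an ETS factor that binds MMP promoters, had 9.54 in the NSC-631570 array, against 8.28 and 8.55 in the untreated arrays. ETV5 had 9.89 in the NSC-631570 array, against 8.16 and 9.20 in the untreated arrays. It stood 1.21 above the untreated mean and 0.69 above the higher untreated value. Its 3 other probe sets past the filter differed by between 0.13 and 1.48. Of the AP-1 genes in the list, JUN and FOS lay below both untreated arrays, FOSL1 above both and JUNB between them. JUN had 11.24 in the NSC-631570 array, against 12.08 and 12.61 in the untreated arrays, and 3 more JUN probe sets had a median of −1.45. FOS had 9.14 in the NSC-631570 array, against 9.96 and 10.86 in the untreated arrays. FOSL1 had 11.53 in the NSC-631570 array, against 11.19 and 10.91 in the untreated arrays, and 5 more FOSL1 probe sets had a median of 0.50. JUNB had 9.64 in the NSC-631570 array, against 9.61 and 10.25 in the untreated arrays. The adjusted p was 0.118 for ETV4, 0.22 for ETV5, 0.147 for JUN and 0.175 for FOS by limma.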

How the data were processed

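RNA of FaDu cells was hybridised to 3 Affymetrix PrimeView arrays, 1 from cells with NSC-631570 and 2 from untreated cells. The authors deposited 1 log2 signal for each probe set and array, made with Affymetrix Expression Console per the submitters' processing notes. The log2 scale was inferred from their range, 2.92 to 14.95, and algorithm, version and normalization are not given in the sources used. They were used as deposited.

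Probe sets were named through the platform annotation: of 49395, 44994 named 1 gene, 1832 several, 2473 none, and 102 are controls, of which 6 name a gene (ACTB or GAPDH) and are counted above too. Those naming several genes, 2 of them with a member, were not used for any gene. Each gene was read on the probe set with the highest mean. Limma (version 3.58.1, R version 4.3.3) was fitted over 11932 genes with 1 residual degree of freedom, 6.95 prior degrees of freedom and a prior SD of 0.19, with p-values adjusted by Benjamini-Hochberg and called under 0.05. On simulated data the fit missed many of the smaller changes and called some unchanged genes, and the number of arrays limits its precision.

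Members and lists were chosen with earlier results of these data known. Array values are given for tested members at least 0.5 outside both untreated arrays, the 10 with the highest mean, all TIMPs, MMP14, ADAM10 and ADAM17, up to 3 examples of each other role, and up to 8 linked genes farthest from the nearer untreated array. MMP7, MMP12, MMP8 and MMP9 are shown for their place on chromosome 11 or their family. MMP7, FOSL1, JUNB, PLAU and PAPLN were singled out after their values were seen. The planned division of ADAMs by a zinc-binding motif was replaced by general knowledge, since protein sequences were not used here. Alternatives were other normalizations and centrings, filters, probe set summaries and prior variances, and leaving out each untreated array.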

Additional observations from a re-analysis of the deposited data

How the results depend on the processing

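Counts of calls depended on the scaling and on how probe sets were used. Over all genes 8 passed the threshold, against 4 after quantile normalization and also without a filter, 3 with the mean of all probe sets, 21 with the filter at the 60th percentile, 31 with a trended prior, 50 (21 higher, 29 lower) with arrays centred on the tested genes, 136 (111 higher, 25 lower) with arrays centred on all probe sets, and 795 (150 higher, 645 lower) with each probe set by itself. For the metalloproteinase genes the count was 0, against 2 (ADAM8 and MMP28) with arrays centred on all probe sets and 3 probe sets with each tested by itself. It stayed at 0 under the other alternatives. The count at least 2-fold outside both untreated arrays was 2, against 0 with arrays centred on the tested genes, as with the mean of all probe sets or of those past the filter (the last chosen after the data were seen), 1 with the filter at the 60th percentile, 5 under a 1.5-fold rule and 4 probe sets with each by itself. It was between 2 and 6 when untreated replicate 2 or 1 was left out, where the rule asked for 2-fold from the single untreated array left. Of all 27255 probe sets by themselves, 176 lay 2-fold or more above both untreated arrays and 701 below both. Of the 63 member probe sets 3 lay as far above and 1 as far below. The same count over all genes was not made for the other alternatives, so those counts describe the members alone. The median difference was 0.35, against 0.39 with arrays centred on all probe sets, 0.15 with arrays centred on the tested genes (median of all tested genes −0.08), 0.17 without a filter, 0.19 with the mean of all probe sets, 0.29 with the mean of those past the filter and 0.20 with each by itself. It was 0.23 to 0.28 when an untreated array was left out.

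Of 197 alternatives for the 16 genes chosen by rule, 17 turned the sign, 3 (of ADAM8 and MMP28) newly passed the threshold in the same direction and 177 did neither. Alternatives that left out an untreated array gave no p-value, so for them only the direction could be compared. Other filters and prior variances leave the difference of a gene on its brightest probe set unchanged, so its sign could not turn there. ADAM15 stood at −0.015 with arrays centred on the tested genes and −0.26 with either mean of its probe sets, and 4 of its probe sets at −0.74, −0.92, −0.18 and −0.061. ADAM17 stood at −0.086 and −0.25 with the mean of all its probe sets and of those past the filter, and at −1.18 on 1 probe set. TIMP4 stood at −0.073 with arrays centred on the tested genes. Single probe sets turned ADAM10 (−0.59), MMP14 (−0.63) and TIMP1 (−0.0081). Without untreated replicate 1 and without untreated replicate 2 in turn, MMP13 stood at 0.13 and −0.49, TIMP4 at −0.047 and 0.29, and ADAM9 at −0.40 and 0.13. The cause of these changes was not tested. The differences of MMP28, ADAM8, MMP15, MMP1, TIMP1 and MMP3 stayed above 0 in every alternative that gave a value, except for the TIMP1 probe set above. These 6 genes were chosen for lying at least 0.5 above both untreated arrays, so leaving out either array could not turn their sign. MMP3 had no other probe set, and the other one of MMP15 was below the filter and not read by itself. MMP28, MMP3, TIMP2, TIMP3 and TIMP4 had no value with the filter at the 60th percentile, nor had TIMP3 with the mean of all probe sets. With 1 treated array no spread could be measured without either untreated array. No paired analysis was possible because the treated condition has 1 array.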
